A study of Rattus norvegicus with 31 samples.

Results

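Dbp, Tef, Hlf and Nfil3 are the 4 clock output factors described here. They were chosen by gene symbol, each has 1 row in the count table, and they are 4 of 26312 genes in that table. All 4 passed the filter on low counts, which kept 19904 genes. RNA-Seq was performed on livers of 31 young adult female Wistar rats (Crl:WI) dosed daily by oral gavage for 28 days. The 8 control rats received the vehicle, aqueous carboxymethyl-cellulose, which every treated rat received too. Single compounds were thiacloprid (THI, a neonicotinoid insecticide) at 108 mg/kg bw/day in 4 rats, imazalil (IMZ, an imidazole fungicide) at 93 mg/kg bw/day in 4 rats and clothianidin (CTD, a neonicotinoid insecticide) at 288 mg/kg bw/day in 3 rats. The study marks its CTD group at this dose as having lost 1 or more rats, killed when moribund. The mixtures, with 4 rats each, were THI + IMZ at 54 and 46 mg/kg bw/day, THI + CTD at 54 and 134 mg/kg bw/day, and IMZ + CTD at 46 and 135 mg/kg bw/day. The rats were kept in a constant light/dark cycle. The hour at which livers were taken is not given in the sources used here, so a difference in level cannot be told apart from a shift in phase.

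DBP, TEF and HLF are the 3 PAR bZIP transcription factors. They bind as dimers to D-box sites and activate transcription there, and in liver they are known for driving daily rhythms of detoxification enzymes. NFIL3, also called E4BP4, is a related bZIP factor that binds the same D-box sites and represses. Dbp itself is a direct target of the CLOCK:BMAL1 activator through E-box sites, whereas Nfil3 transcription is controlled by ROR activators and REV-ERB repressors. Levels of the activators and of NFIL3 run in roughly opposite phase over the day.

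The sequences directly upstream of the start of 3 of the 4 genes are shown to place these motifs beside genes that did and did not change together. They are RefSeq sequences of the build GRCr8, 250 bases each, ending 1 base before the annotated start. Rnor_5.0, to which reads were mapped, is another build, and the counts are tied to these sequences by gene symbol only. Capitals mark a motif found on either strand, among the E-box CACGTG, the D-box TTATGTAA or TTACGTAA, and the ROR core AGGTCA. Hlf was not among the promoter sequences used here.
Dbp, chr1:105312006-105312255 (+): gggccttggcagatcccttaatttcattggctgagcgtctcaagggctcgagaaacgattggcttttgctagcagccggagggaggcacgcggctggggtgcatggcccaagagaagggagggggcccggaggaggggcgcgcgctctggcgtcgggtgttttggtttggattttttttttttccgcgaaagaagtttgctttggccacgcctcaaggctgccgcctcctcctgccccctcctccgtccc
Tef, chr7:115206577-115206826 (+): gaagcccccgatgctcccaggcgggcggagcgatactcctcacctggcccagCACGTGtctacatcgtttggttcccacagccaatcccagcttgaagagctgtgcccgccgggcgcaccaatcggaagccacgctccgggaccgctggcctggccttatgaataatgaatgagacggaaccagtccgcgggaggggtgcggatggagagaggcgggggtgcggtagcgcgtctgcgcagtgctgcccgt
Nfil3, chr17:12432126-12432375 (+): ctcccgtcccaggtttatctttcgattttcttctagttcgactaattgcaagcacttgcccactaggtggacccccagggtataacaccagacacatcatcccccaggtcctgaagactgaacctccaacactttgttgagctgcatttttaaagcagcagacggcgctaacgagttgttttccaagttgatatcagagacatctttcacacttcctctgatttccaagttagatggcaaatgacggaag
The Tef sequence held 1 E-box, whose first base is at position -198 from the start, and the Dbp and Nfil3 sequences held none of these motifs. Of 33469 rat promoter sequences of the same length, 5.59% held the E-box, 0.932% a D-box and 14.1% the ROR core. Among the 14 core clock and clock-driven genes described further on, 12 had a sequence, of which 3 (Ciart, Bhlhe40, Bhlhe41) held the E-box, 1 (Per2) a D-box and 3 (Nr1d2, Usp2, Arntl) the ROR core. These letters are a description of these windows, and sites elsewhere in the genes were not searched.

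The libraries ranged in depth from 31.8 to 101 M counts, and their median was 41.0 M. Control libraries were deeper, with a median of 60.5 M against 40.2 M in treated rats, and the 4 IMZ + CTD libraries ranged from 31.9 to 36.6 M. Raw counts over the 31 livers ran from 79 to 608 for Dbp, from 561 to 3101 for Tef, from 96 to 674 for Hlf and from 1858 to 8584 for Nfil3. Values are given as CPM, a gene's counts divided by the total of its library in M counts, after scaling by the trimmed mean of M values (TMM). CPM compares 1 gene between livers and not 1 gene with another, as it is not divided by gene length. Tests were quasi-likelihood F-tests of edgeR in 1 model of all 7 groups. Adjusted p is by Benjamini-Hochberg over 19904 genes, with a threshold of 0.05. All 6 comparisons with control share the same 8 control rats. In whole liver, fewer cells of a type cannot be told apart from less RNA per cell.

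The 3 activators fell together in IMZ + CTD, to 46.8% of control for Dbp, 49.9% for Hlf and 60.4% for Tef, while the repressor Nfil3 stood at 92.2% and did not pass the test (adjusted p = 0.686). Thus 3 of the 4 genes passed in this comparison, all lower, where 1.46% of all genes passed and 0.452% passed as lower. Nfil3 fell alone of the 4 in CTD and in THI + CTD, where 12.7% and 4.39% of all genes passed. As lower, 6.03% passed in CTD and 1.71% in THI + CTD. None of the 4 passed in THI, IMZ or THI + IMZ by edgeR or DESeq2, where edgeR passed 0.543%, 0.251% and 1.18% of all genes. At an unadjusted p under 0.05 there was 1 in each, Dbp in THI and THI + IMZ and Nfil3 in IMZ.

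**Figure D1:**
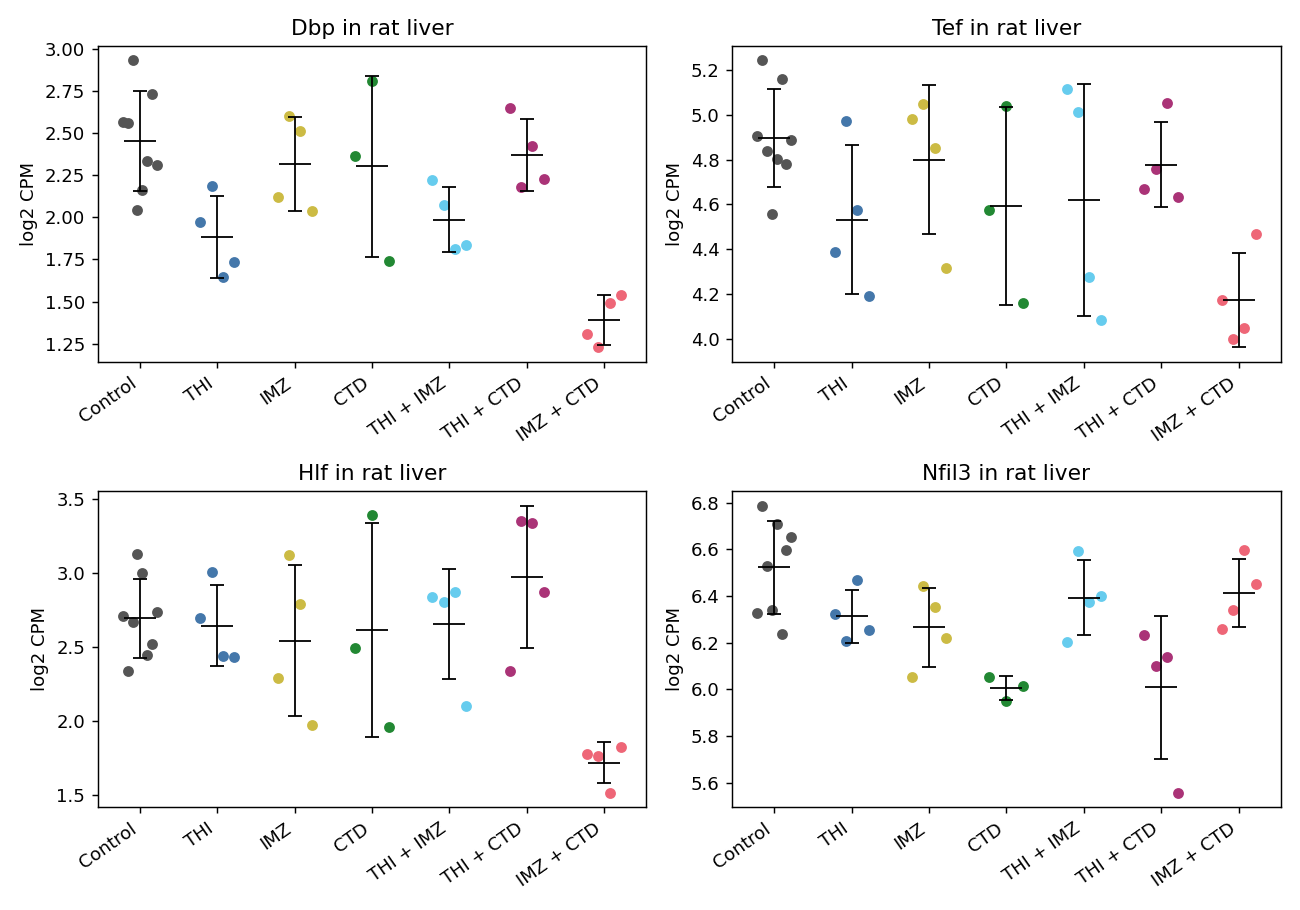
Log2 CPM of Dbp, Tef, Hlf and Nfil3 (vertical axes, a separate range for each gene) in each of the 31 livers by group (horizontal axes), with points for single rats and bars for the group mean and SD. In IMZ + CTD all 4 livers lie below all 8 control livers for Dbp, Tef and Hlf but not for Nfil3, and in CTD and THI + CTD all livers lie below all control livers for Nfil3.

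Dbp, the strongest cycling output gene of the liver clock, ranged from 4.07 to 7.58 CPM in the 8 control livers with a median of 5.42. The 4 IMZ + CTD livers held 2.43, 2.30, 2.76 and 2.86 CPM. Every IMZ + CTD liver was below every control liver, a separation that 1.01% of all genes showed in this comparison. The difference was -1.09 on the log2 scale (SE 0.18, 95% interval -1.46 to -0.73, adjusted p = 0.000968). The exact two-sided permutation test of log2 CPM gave p = 0.00202, the smallest that its 495 regroupings allow.

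The THI livers held 3.88, 4.50, 3.09 and 3.29 CPM of Dbp, and 3 of them were below all controls. This difference of -0.58 (SE 0.17) did not pass the test across all genes (adjusted p = 0.176). Taken as a single gene, it gave an exact permutation p of 0.00808, unadjusted. In THI + IMZ the values were 4.61, 4.16, 3.47 and 3.53 CPM, 2 of them below all controls, with a difference of -0.49 (SE 0.17, adjusted p = 0.212) and an exact permutation p of 0.0242, unadjusted. So the groups with THI at its full or halved dose and no CTD overlapped the low end of control.

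Dbp in IMZ and THI + CTD lay within or just at the edge of the control range. The IMZ livers held 4.30, 6.01, 5.67 and 4.06 CPM, a difference of -0.14 (SE 0.17, adjusted p = 0.852). The THI + CTD livers held 6.22, 4.48, 5.32 and 4.63 CPM, a difference of -0.10 (SE 0.17, adjusted p = 0.794). The 3 CTD livers were spread widely, at 5.10, 6.95 and 3.29 CPM, and their difference from control was -0.11 (SE 0.19, adjusted p = 0.744). By mean CPM the order from high to low was Control, THI + CTD, CTD, IMZ, THI + IMZ, THI, IMZ + CTD.

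Tef, thyrotroph embryonic factor, ranged from 23.5 to 37.9 CPM in control livers with a median of 29.05. The IMZ + CTD livers held 17.99, 15.95, 16.5 and 22.1 CPM. They too were all below every control liver, although the highest of them came close to the lowest control. The difference was -0.73 (SE 0.18, 95% interval -1.10 to -0.35, adjusted p = 0.0332, exact permutation p = 0.00202). This call was lost in 5 of the 31 fits that left out 1 rat. Without control replicate 2 or 6 the adjusted p rose to 0.0567 and 0.0626. Without IMZ + CTD replicate 1, 2 or 3 it rose to 0.069, 0.15 and 0.15.

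In the other 5 treatments Tef differed from control by -0.35 (THI, SE 0.18) to -0.08 (IMZ, SE 0.18), with adjusted p from 0.425 to 0.939. The livers within these groups other than THI + CTD were more spread than the controls. In THI + IMZ, 2 livers held 34.6 and 32.2 CPM and the other two 19.3 and 16.9 CPM. In CTD the 3 livers held 23.8, 32.9 and 17.8 CPM, and replicate 2 was again the highest and replicate 3 the lowest, as for Dbp.

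Hlf, hepatic leukemia factor, ranged from 5.01 to 8.71 CPM in control livers with a median of 6.41. The IMZ + CTD livers held 3.38, 3.35, 2.82 and 3.50 CPM. They were all below every control liver and closer to each other (coefficient of variation 9.25%) than the controls were (19.3%). The difference was -1.003 (SE 0.24, 95% interval -1.49 to -0.52, adjusted p = 0.0211, exact permutation p = 0.00202). Without IMZ + CTD replicate 2, 3 or 4 the adjusted p was 0.0701, 0.118 or 0.0648.

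Hlf varied widely in CTD, IMZ and THI + CTD, with coefficients of variation of 51.6%, 35.1% and 30.4%. The CTD livers held 5.59, 10.4 and 3.85 CPM, 1 above and 1 below all controls, so that the group mean was near control (0.02, SE 0.24, adjusted p = 0.992). The THI + CTD livers held 5.01, 10.2, 10.1 and 7.29 CPM, 2 of them above all controls, with a difference of 0.32 (SE 0.22, adjusted p = 0.472). The IMZ livers held 4.84, 8.66, 6.87 and 3.89 CPM, 2 of them below all controls. THI ranged from 5.36 to 8.01 CPM and THI + IMZ from 4.25 to 7.28 CPM. The differences in IMZ (-0.11, SE 0.22), THI (-0.05, SE 0.22) and THI + IMZ (-0.03, SE 0.22) were smaller than their errors.

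The high Hlf values in CTD replicate 2 and THI + CTD replicates 2 and 3 were in livers with Pck1, the gluconeogenic enzyme that rises in fasting, below all controls. Pck1 was at 540 CPM in CTD replicate 2 and at 957 and 597 CPM in THI + CTD replicates 2 and 3, against 1465 to 4600 CPM in controls. THI + CTD replicate 4, at 1017 CPM of Pck1, had an Hlf level of 7.29 CPM, within the control range. THI replicates 2 and 3 also had Pck1 below all controls, at 835 and 1364 CPM, with Hlf within the control range, while IMZ replicate 2 had Hlf near the top of that range, at 8.66 CPM, with Pck1 at 2296 CPM. In IMZ + CTD, Pck1 was at 1941 to 2941 CPM, within the control range. The part of feeding state in these levels was not tested.

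Nfil3, the repressor of D-box sites, ranged from 75.4 to 110 CPM in control livers with a median of 94.5. The 3 CTD livers held 66.4, 61.8 and 64.6 CPM. All 3 were below every control liver, as were 5.48% of all genes in this comparison, and their coefficient of variation was 3.60%. The difference was -0.53 (SE 0.12, 95% interval -0.78 to -0.28, adjusted p = 0.0035). The exact permutation p was 0.00606, the smallest that 165 regroupings allow.

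In THI + CTD, at 134 in place of 288 mg/kg bw/day of CTD, the livers held 75.3, 68.6, 70.4 and 47.0 CPM of Nfil3. All 4 were below every control liver, as were 1.82% of all genes, but the highest of them all but touched the lowest control. The difference was -0.50 (SE 0.11, 95% interval -0.73 to -0.28, adjusted p = 0.00558, exact permutation p = 0.00202). Replicate 4 carried part of it, and without that rat the difference was -0.38 with an adjusted p of 0.0369.

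In the third group with CTD, Nfil3 did not pass against control. The IMZ + CTD livers held 76.5, 81.1, 96.7 and 87.4 CPM of Nfil3, all within the control range (-0.12, SE 0.11). THI (73.8 to 88.6 CPM, -0.22, SE 0.11), IMZ (66.3 to 86.9 CPM, -0.26, SE 0.11) and THI + IMZ (73.7 to 96.5 CPM, -0.13, SE 0.11) overlapped control, with adjusted p from 0.507 to 0.673. By mean CPM the order from high to low was Control, IMZ + CTD, THI + IMZ, THI, IMZ, THI + CTD, CTD.

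**Figure D2:**
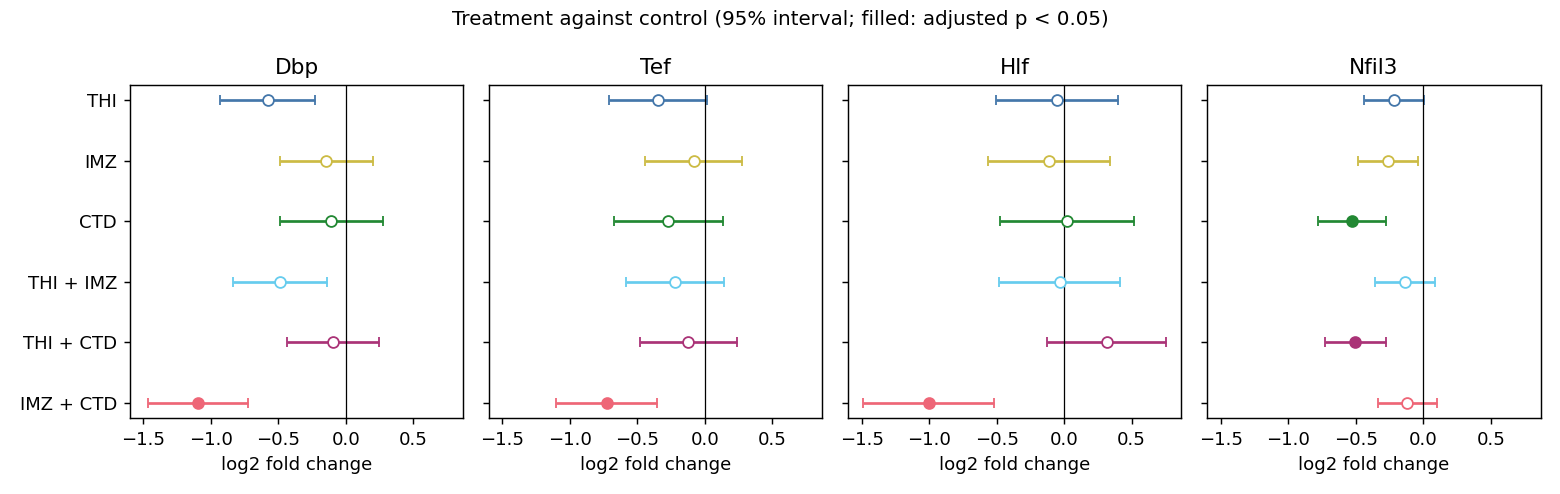
Log2 fold change against control (horizontal axis) of Dbp, Tef, Hlf and Nfil3 in 6 treatments (vertical axis), with 95% intervals that are not adjusted for the number of genes. Filled points passed an adjusted p of 0.05: the activators in IMZ + CTD, from -0.73 to -1.09, and Nfil3 in CTD (-0.53) and THI + CTD (-0.50).

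The number of Dbp counts per 100 Nfil3 counts describes the activator and the repressor of each liver in 1 value. It is independent of library scaling, and it is given without a test. Control livers held 4.24 to 8.22 with a median of 5.96. IMZ + CTD livers held 2.84 to 3.27, all below control, through lower Dbp. CTD livers held 5.10 to 11.2 and THI + CTD livers 6.53 to 9.85, with medians of 7.68 and 7.91, through lower Nfil3. IMZ + CTD thus lay at the low end of all groups and the other CTD groups at the high end.

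To ask whether a mixture did what its compounds did alone, each mixture was set against the sum of the log2 fold changes of its single compounds, each multiplied by the share of the single dose that the mixture held (0.5 for THI, 0.5 for IMZ, 0.47 for CTD) and called the dose-weighted sum. In IMZ + CTD this sum rests on differences from control of -0.14 (IMZ) and -0.11 (CTD) for Dbp. They were -0.08 and -0.27 for Tef and -0.11 and 0.02 for Hlf, and none of them passed. Dbp lay below the sum by -0.97 (SE 0.18, adjusted p = 0.00566) and Hlf by -0.96 (SE 0.24, adjusted p = 0.0425). These 2 of 4 genes passed, both lower, where 1.16% of all genes passed and 0.462% as lower.

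Tef lay below the sum by -0.56 (SE 0.18, 95% interval -0.94 to -0.18) and did not pass (adjusted p = 0.138). Nfil3 lay above the sum by 0.26 (SE 0.11, adjusted p = 0.25). The Hlf call was fragile: without CTD replicate 2, the rat with the highest Hlf, the value was -0.73 (adjusted p = 0.109), and it was lost without any single IMZ + CTD rat, without IMZ replicate 2 or 3, and with no filter on low counts (adjusted p = 0.0536). The Dbp call held in each of the 31 fits that left out 1 rat, with values from -1.08 to -0.84.

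None of the 4 genes passed against the dose-weighted sum in THI + IMZ or THI + CTD by edgeR, where 0.0151% and 0.286% of all genes passed, and 0 of the 4 had an unadjusted p under 0.05. For Dbp the values were -0.13 (95% interval -0.47 to 0.22) in THI + IMZ and 0.24 (95% interval -0.10 to 0.59) in THI + CTD. Those intervals leave room for moderate deviations either way.

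**Figure D3:**
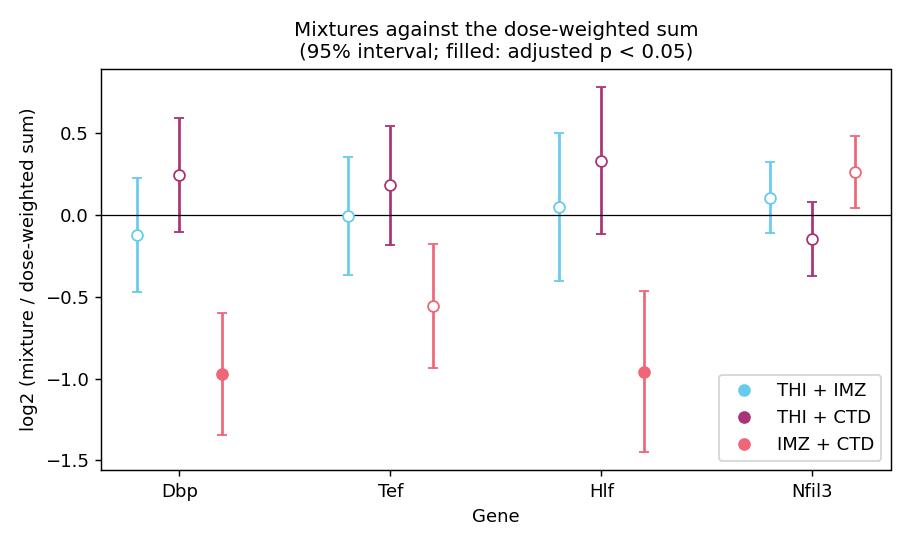
Difference of each mixture from the dose-weighted sum of its compounds on the log2 scale (vertical axis) for the 4 genes (horizontal axis), with 95% intervals not adjusted for the number of genes. Filled points, Dbp (-0.97) and Hlf (-0.96) in IMZ + CTD, passed an adjusted p of 0.05.

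The treated groups were also compared with each other in all 15 pairs, at the doses given above, which differ between single compounds and mixtures. Dbp and Hlf were lower in IMZ + CTD than in CTD, by -0.99 (SE 0.22, adjusted p = 0.0053) and -1.03 (SE 0.28, adjusted p = 0.0281). That made 2 of 4 genes, both lower, where 5.53% of all genes passed and 2.7% as lower. Nfil3 in IMZ + CTD differed from CTD by 0.41 (SE 0.14), which did not pass by edgeR (adjusted p = 0.0703), but passed by DESeq2 (adjusted p = 0.0364) and by edgeR without THI + CTD replicate 4 (adjusted p = 0.0335). The calls of Dbp and Hlf leaned on CTD replicate 2: without it Dbp differed by -0.70 (adjusted p = 0.083) and Hlf by -0.54 (adjusted p = 0.358). The Hlf call was also lost without IMZ + CTD replicate 1, 2 or 3 (adjusted p from 0.0532 to 0.0761).

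Dbp and Hlf were also lower in IMZ + CTD than in THI + CTD, by -0.997 (SE 0.20) and -1.32 (SE 0.27), each with an adjusted p of 0.0268. Again 2 of 4 genes passed, where only 0.176% of all genes did and 0.121% as lower. Nfil3 differed by 0.39 (SE 0.12, adjusted p = 0.23) and Tef by -0.61 (SE 0.21, adjusted p = 0.253) in this pair, and neither passed. The Dbp call was lost in 7 of 31 fits that left out 1 rat, namely any IMZ + CTD rat or THI + CTD replicate 1, 2 or 3 (adjusted p from 0.0623 to 0.112). The Hlf call was lost in 6, namely any IMZ + CTD rat or THI + CTD replicate 2 or 3 (adjusted p from 0.0532 to 0.127).

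Against IMZ alone, the difference of Dbp in IMZ + CTD was -0.95 (SE 0.20, 95% interval -1.36 to -0.54), and its adjusted p was 0.0819. In that pair edgeR passed 0 genes (0.0%), with 1863 at an unadjusted p under 0.05, and the Wald test of DESeq2 gave Dbp an adjusted p of 0.0057. Dbp also passed by edgeR without CTD replicate 3 (adjusted p = 0.0475). Against THI and THI + IMZ, where 0.176% and 0.0653% of all genes passed, none of the 4 genes did by edgeR. DESeq2 passed Hlf in both (adjusted p = 0.032 and 0.0458). The differences of Dbp there were -0.52 (SE 0.20, adjusted p = 0.364) and -0.61 (SE 0.20, adjusted p = 0.317), and those of Hlf -0.95 (SE 0.27, adjusted p = 0.124) and -0.97 (SE 0.27, adjusted p = 0.199). So IMZ + CTD was the lowest group for each activator, but its distance from its neighbours in that order, THI and THI + IMZ for Dbp, was not shown by the test.

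In the 10 pairs without IMZ + CTD none of the 4 genes passed by edgeR. The lowest adjusted p was 0.0813, for Nfil3 in THI + IMZ over CTD (0.39, SE 0.14), which passed by DESeq2 (adjusted p = 0.0467) and by edgeR without THI + CTD replicate 4 (adjusted p = 0.0352). Without CTD replicate 3, 1 other difference passed by edgeR. All genes passed at 0.01% for IMZ against THI, 6.62% for CTD against THI, 0.01% for THI + IMZ against THI, 0.106% for THI + CTD against THI, 4.67% for CTD against IMZ, 0.0502% for THI + IMZ against IMZ, 0.00502% for THI + CTD against IMZ, 6.29% for THI + IMZ against CTD, 2.67% for THI + CTD against CTD and 0.171% for THI + CTD against THI + IMZ.

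A further 10 genes are known to peak near Dbp in liver, as core clock repressors or clock-driven genes. In IMZ + CTD, 2 of the 10 fell and 1 rose, with a median of -0.90 against -0.01 over all genes with an average log2 CPM above 0. There 1.46% of all genes passed, 0.452% as lower. The medians are over unlike sets, as the list holds genes below that cut. Ciart and Bhlhe41 reached at most 0.405 and 0.422 CPM in any liver. Usp2, a clock-driven deubiquitinase, fell from a control range of 7.33 to 16.9 CPM to 2.33 to 5.91 CPM (-1.62, SE 0.36, adjusted p = 0.0146). Per1, a repressor of CLOCK:BMAL1, fell from 9.99 to 29.4 CPM in control to 3.92 to 9.41 CPM (-1.38, SE 0.27, adjusted p = 0.00493). Both ranges lay wholly below control, as did those of 1.01% of all genes in this comparison.

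Nr1d2, which encodes REV-ERBβ, moved the other way, from 3.04 to 5.46 CPM in control to 5.41 to 9.23 CPM in IMZ + CTD (0.77, SE 0.17, adjusted p = 0.0128), ranges that just overlap. Its relative Nr1d1 (REV-ERBα) was low everywhere, at 0.136 to 0.940 CPM in control and 0.617 to 3.75 CPM in IMZ + CTD (2.07, SE 0.59, adjusted p = 0.076). Per2 was at 6.13 to 17.3 CPM against 20.2 to 39.5 CPM in control, wholly below control like 1.01% of all genes. It did not pass (-1.54, SE 0.42, adjusted p = 0.0596). Per3 (-0.96, SE 0.36), Bhlhe41 (-2.15, SE 0.71), Ciart (-0.83, SE 1.06), Bhlhe40 (-0.38, SE 0.18) and Wee1 (0.07, SE 0.27) did not pass. The genes of this list therefore did not share 1 direction. In IMZ + CTD, 8 of the 10 had an unadjusted p under 0.05. DESeq2 passed 4 of the 10 there, and edgeR passed 5 with only the groups compared. In fits without 1 rat edgeR passed 1 to 5. The calls of Usp2 and Nr1d2 were lost without IMZ + CTD replicate 2 (adjusted p = 0.0878 and 0.115) or 4 (0.0788 and 0.0743), and that of Usp2 without replicate 3 (0.0585), whereas Per1 passed there in each fit without 1 rat.

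In the other treatments Per1 was the clock gene that passed most often. It fell in THI (-1.45, SE 0.27, adjusted p = 0.00403), CTD (-0.96, SE 0.29, adjusted p = 0.0256) and THI + IMZ (-1.12, SE 0.26, adjusted p = 0.0238). The call in THI held without any 1 rat, whereas that in CTD was lost without any CTD rat or control replicate 5 (adjusted p up to 0.11) and that in THI + IMZ without replicate 3 or 4 (0.103 and 0.117). Of the 10 genes, 1 passed in THI, 0 in IMZ, 4 in CTD, 1 in THI + IMZ and 1 in THI + CTD, with medians of 0.02, -0.06, -0.37, 0.01 and 0.10. Of all genes, 0.543%, 0.251%, 12.7%, 1.18% and 4.39% passed in these treatments, in that order. The other calls in CTD were lower Bhlhe40 (-0.83, SE 0.21), higher Nr1d2 (0.56, SE 0.19) and higher Wee1 (1.24, SE 0.27), a kinase that restrains entry into mitosis. Each of these 3 was lost without CTD replicate 1 (adjusted p = 0.0556, 0.451 and 0.0662), and Bhlhe40 also without CTD replicate 3 (0.072). Nr1d2 in CTD was lost in 16 of the 31 fits without 1 rat, with no filter (0.0619) and with only the groups compared (0.0678). Wee1 was also the call in THI + CTD (0.94, SE 0.25, adjusted p = 0.0272), and it was lost there without replicate 2 or 3 or control replicate 5 (adjusted p up to 0.202). In IMZ, DESeq2 passed 1 of the 10, and edgeR had 1 at an unadjusted p under 0.05.

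Of 4 clock genes listed here as opposite in phase to Dbp (Arntl, Clock, Npas2 and Cry1), none passed by edgeR in any of the 6 treatments. At an unadjusted p under 0.05 there were 0 in THI, 1 in IMZ, 1 in CTD, 0 in THI + IMZ, 0 in THI + CTD and 1 in IMZ + CTD, and DESeq2 passed 1 in IMZ + CTD and 0 in the other treatments. By edgeR, 1 passed in CTD without CTD replicate 3 and 1 in IMZ + CTD without THI + IMZ replicate 4. Arntl, which encodes BMAL1, stayed between 48.8 and 61.9 CPM in all 31 livers and differed from control by -0.09 to 0.01 in the 6 treatments (SE 0.06 to 0.07). Clock (0.05, SE 0.10), Npas2 (0.27, SE 0.18) and Cry1 (-0.59, SE 0.18, adjusted p = 0.0981) did not pass in IMZ + CTD. With only the groups compared, 1 of the 4 passed there. Against the dose-weighted sum, 1 of the 4 and 1 of the 10 genes above passed in IMZ + CTD, both lower. In that comparison 1.16% of all genes passed, 0.462% as lower. At an unadjusted p under 0.05 there were 2 of the 4 and 7 of the 10.

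**Figure D4:**
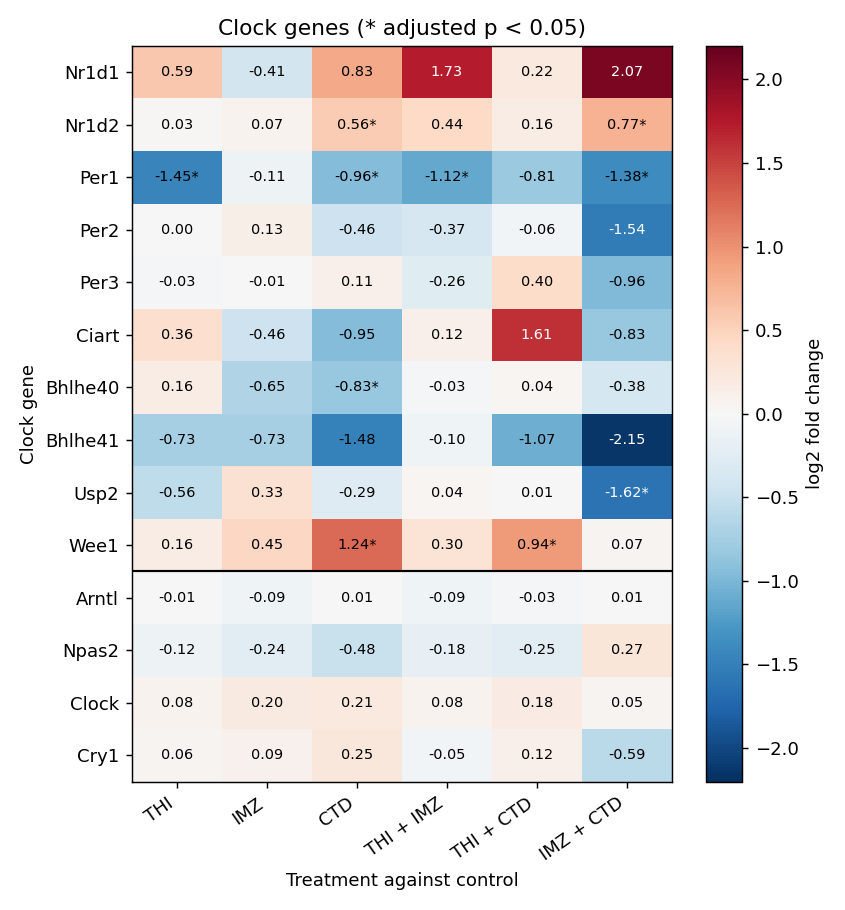
Log2 fold change against control (colour and printed value) of 14 clock genes (rows) in 6 treatments (columns), with genes that peak near Dbp above the line and genes listed as opposite in phase below it. Asterisks mark an adjusted p under 0.05: Per1 (-1.38) and Usp2 (-1.62) were lower and Nr1d2 (0.77) higher in IMZ + CTD.

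Of the genes measured, 9 liver genes are known targets of these factors, though other regulators act on them as well. Cyp2b1 and Cyp2b2, classical targets of the xenobiotic receptor CAR, were the 2 that rose in IMZ + CTD, by 5.20 (SE 0.82) and 3.65 (SE 0.43). Both rose in every treatment, up to 9.02 (SE 0.88) for Cyp2b1 in THI. These 2 genes are close copies, so reads may be split between them. Cyp7a1, the rate-limiting enzyme of bile acid synthesis, fell in THI (-2.45, SE 0.55) and THI + IMZ (-2.90, SE 0.56), whereas its difference in IMZ + CTD was -1.43 (SE 0.52) and did not pass.

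Por, the electron donor of microsomal P450 enzymes, rose in THI + IMZ (0.82, SE 0.20) and THI + CTD (0.84, SE 0.20) and was at -0.40 (SE 0.21) in IMZ + CTD. Nr1i3, which encodes CAR, rose in CTD (1.10, SE 0.29), THI + IMZ (1.24, SE 0.26) and THI + CTD (1.37, SE 0.26). Ppara rose in THI + IMZ (0.73, SE 0.14). The call of Cyp7a1 in THI was lost without any THI rat (adjusted p from 0.0577 to 0.118). That of Por in THI + IMZ was lost in 7 fits without 1 rat (adjusted p up to 0.322). That of Por in THI + CTD was lost without replicate 3 (0.0629), and that of Nr1i3 in CTD without CTD replicate 2 or 3 (up to 0.0704). Alb, Alas1 and Fgf21 passed in none of the 6 treatments. In all, 3 of the 9 passed in THI, 2 in IMZ, 3 in CTD, 6 in THI + IMZ, 4 in THI + CTD and 2 in IMZ + CTD. Of all genes, 0.543%, 0.251%, 12.7%, 1.18%, 4.39% and 1.46% passed in these treatments, in that order.

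Shared variation between rats was examined after the group means were removed. Over 31 livers, Dbp and Tef deviated together (Pearson r = 0.594, permutation p = 0.0025, adjusted p = 0.025; Spearman rho = 0.562, permutation p = 0.0037, adjusted p = 0.037, over 10 relations). Without the 2 livers with the most extreme Dbp, r was 0.508 (permutation p = 0.01, unadjusted). Tef and Hlf gave r = 0.495 (permutation p = 0.022, adjusted p = 0.11) and rho = 0.402 (permutation p = 0.054, adjusted p = 0.21), and without 2 livers r was 0.434 (permutation p = 0.062). Dbp and Hlf gave r = 0.337 (permutation p = 0.2) and rho = 0.242 (permutation p = 0.29), and did not pass.

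Nfil3 gave r of 0.189 with Dbp, 0.064 with Tef and -0.022 with Hlf, with permutation p from 0.31 to 0.92, so no relation of repressor and activators passed within groups. Arntl gave r from 0.136 to 0.403 with the 4 genes, and none passed (permutation p from 0.062 to 0.54). Within the 8 controls alone none of the 10 relations passed after adjustment. Tef and Hlf ran opposite there (r = -0.845, exact permutation p = 0.012, adjusted p = 0.12), unlike in the pooled deviations, and r was -0.553 (exact permutation p = 0.28) without 2 livers. Dbp and Tef gave r = 0.255 (exact permutation p = 0.54) in the 8 controls, weaker than over all livers. No batch or date of sequencing is given in the sources used here.

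**Figure D5:**
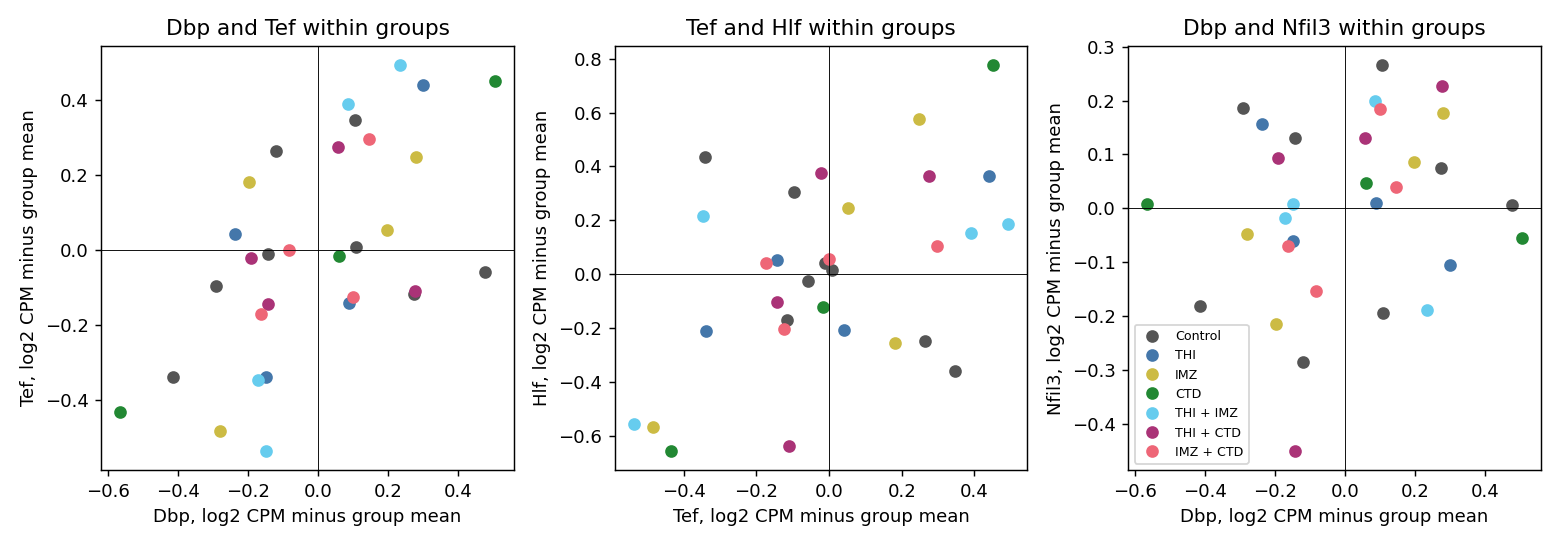
Deviation of log2 CPM from the group mean in each of the 31 livers for 3 pairs of genes (both axes, log2 units), coloured by group. Dbp and Tef deviate together (r = 0.594), Tef and Hlf less closely (r = 0.495, adjusted p = 0.11), and Dbp and Nfil3 do not show a relation that passed (r = 0.189).

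The genes most like each of the 4 were named by the Pearson correlation of log2 CPM over the 31 livers among 10970 genes, as a description. These values share libraries and treatments. For Dbp they were Tef (0.762), Ngef (0.727), Usp2 (0.674), Cry1 (0.650) and Crls1 (0.642), and Hlf came at rank 16. For Tef they were Naa60 (0.874), Lonrf3 (0.827), Usp2 (0.815), Per3 (0.809) and Cry1 (0.782), with Dbp at rank 7.

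For Hlf the closest genes were Per2 (0.793), Dgkd (0.779), D17Wsu92e (0.754), Cry1 (0.749) and Myo19 (0.738). Cry1 was thus among the 5 for each activator, with positive correlations, although it was listed above as opposite in phase to Dbp. Nfil3 had other neighbours, Irs2 (0.858), Igfbp1 (0.832), F2 (0.782), Irf2bp2 (0.781) and Uqcr10 (0.776), and its correlation with Dbp was -0.01. Irs2 encodes an insulin receptor substrate and Igfbp1 a binding protein of insulin-like growth factors, and both are known to be repressed by insulin in liver. After removal of group means Nfil3 gave 0.755 with Irs2 and 0.716 with Igfbp1. Both genes were picked by their correlation with Nfil3 in these same livers, so these values are no separate evidence.

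Igfbp1 passed as lower in the same treatments as Nfil3, CTD (-2.77, SE 0.73, adjusted p = 0.00944) and THI + CTD (-3.34, SE 0.66, adjusted p = 0.00252). It was at 13.3 to 69.0 CPM in CTD and 5.09 to 74.6 CPM in THI + CTD, against 64.2 to 691 CPM in control and 126 to 337 CPM in IMZ + CTD. Its mean was below the 323 CPM of control in the other treatments too, without passing. The means there were 91.2 CPM in THI, 202 in IMZ, 141 in THI + IMZ and 207 in IMZ + CTD. Igfbp1 was the only 1 of 7 feeding and fasting genes that passed in either of these treatments, and none of the 7 passed in THI, IMZ, THI + IMZ or IMZ + CTD, where 1, 0, 3 and 1 had an unadjusted p under 0.05. Its call in CTD was lost without CTD replicate 2 (adjusted p = 0.0706). DESeq2 passed 1 of the 7 in IMZ + CTD and 2 in THI + CTD. By edgeR, 12.7% of all genes passed in CTD and 4.39% in THI + CTD. The part of feeding state in the lower Nfil3 was not tested.

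Hepatocyte markers (Alb, Ttr, Apoa1, Tf, Serpina1) were all present, which fits the labelled tissue, with a summed level of 176668 to 236727 CPM in control and 186885 to 243197 CPM in IMZ + CTD. By edgeR none of the 5 passed in IMZ + CTD or CTD, where 2 and 0 had an unadjusted p under 0.05 and DESeq2 passed 1 in IMZ + CTD, and 1 passed in THI + CTD (Serpina1, -0.43, SE 0.08). The 5 Kupffer cell markers summed to 247 to 442 CPM in control, 195 to 380 CPM in IMZ + CTD, 222 to 356 CPM in CTD and 212 to 322 CPM in THI + CTD. Of these, Cd68 fell in CTD (-0.67, SE 0.16), a call lost without CTD replicate 3 (adjusted p = 0.0645). In THI + CTD 0 of the 5 passed by edgeR, but 3 had an unadjusted p under 0.05, Clec4f (-0.46, SE 0.15), Vsig4 (-0.45, SE 0.14) and Cd68 (-0.39, SE 0.14), and DESeq2 passed 2. The median of the 5 was -0.15 in CTD, -0.39 in THI + CTD and -0.17 in IMZ + CTD. The 5 stellate cell and fibroblast markers summed to 201 to 349 CPM in control, 315 to 349 CPM in IMZ + CTD and 332 to 454 CPM in CTD, where Col3a1 rose (0.54, SE 0.13), and in THI + CTD, at 299 to 429 CPM, Col1a1 rose (0.91, SE 0.24). The call of Col3a1 was lost without CTD replicate 3 (adjusted p = 0.0645) and that of Col1a1 without THI + CTD replicate 1 or 2 (0.0999 and 0.0719) and with only the groups compared (0.0567).

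By edgeR, sinusoidal endothelial, bile duct, and T and NK cell markers had none past the test in any of these 3 treatments, nor did the 3 B cell markers measured, whose sum was at most 0.588 CPM. In each list 0 to 2 markers had an unadjusted p under 0.05, and DESeq2 passed 1 endothelial marker in CTD and in THI + CTD and 1 T and NK cell marker in CTD. No marker was at 0 in all livers. In IMZ + CTD, where the 3 activators fell, the summed hepatocyte level thus overlapped control. That sum is mostly Alb and Tf, and the median log2 fold change of the 5 hepatocyte markers there was 0.21. The part of other cell types in the Nfil3 result was not tested.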

How the data were processed

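Total RNA of 31 rat livers was sequenced by the authors with a stranded total RNA kit, paired-end on a NovaSeq6000. Reads were trimmed with Skewer, checked with FastQC 0.11.5, and mapped to Rnor_5.0 and counted per gene with STAR 2.5.2b, per the study's methods and the submitters' processing notes. The annotation release and the strand setting of the counting are not given in the sources used here. The deposited counts are whole numbers for 26312 Ensembl genes, not normalized. The second deposited table holds a signal, counts divided by DESeq2 size factors (1.15.1), for 19904 genes that held 2 counts or more over all livers. The factor of each library was taken as the ratio of its totals in both tables. Counts divided by these factors gave the values of the second table (largest relative deviation 5.2e-15). That table thus holds the same counts scaled per library, and the tests used the counts.

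Groups and replicate numbers came from the sample labels, and each rat is 1 sample. Library totals of 31.8 to 101 M counts set the precision. TMM scaling and the older quasi-likelihood method of edgeR 4.0.16 (R 4.3.3) were used in 1 model with 7 group means. The filter of the authors (2 counts or more over all livers) was kept, with Benjamini-Hochberg adjustment over 19904 genes and a threshold of 0.05. SE was taken from the log2 fold change and the square root of its F statistic. Log2 CPM used a prior count of 2. Permutation tests were two-sided, exact over rats for single genes and over the 8 controls, and with 100000 permutations within groups for the 31 livers. Python 3.11.15 with scipy 1.17.1 and matplotlib 3.10.9 was used for correlations and plots. The steps were tested on simulated data.

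The 4 genes, the gene lists and the tests were chosen with earlier results of these data known. Genes named are the 4, all genes of 2 clock lists, per other list at most 4 with the largest change past the threshold per comparison, and the 5 genes most like each of the 4. In the table Arntl, Nr1d2 and Ciart appear as ARNTL, NR1D2 and RGD1566380. G6pc and Cd79a were not analysed here. A further clock gene is not reported here. Alternatives were DESeq2 1.42.0 (Wald test, and its size factors in edgeR), other filters, the newer quasi-likelihood method, a replicate block, fits of only the groups compared, exact dose ratios as weights, and leaving out each rat. No 2 livers of a group agreed within sampling noise (lowest chi-square per gene 30.6 over 61 pairs).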

Additional observations from a re-analysis of the deposited data

Results flagged for a closer look

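Among 24 sets of 1 gene in 1 group of at least 4 rats, 1 liver stood apart from its group by Dixon's test, about the number that chance gives at 1 in 20. It was Hlf in THI + IMZ replicate 4, at 4.25 CPM against 6.95 to 7.28 CPM in the other rats of the group. That liver also had the lowest Tef of its group, at 16.9 CPM, while its Dbp (3.53 CPM) was not the lowest.

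Further results concern treatments whose effects against the shared controls differed by a test of the difference itself. IMZ + CTD lay below the dose-weighted sum of IMZ and CTD by -0.97 for Dbp and -0.96 for Hlf. IMZ + CTD lay below CTD by -0.99 for Dbp and -1.03 for Hlf, at 135 against 288 mg/kg bw/day of CTD. IMZ + CTD lay below THI + CTD by -0.997 for Dbp and -1.32 for Hlf, at nearly the same dose of CTD. All are log2 differences with adjusted p under 0.05 across all genes in edgeR.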

How the results depend on the processing

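For Dbp, Tef, Hlf and Nfil3 against control, 24 values kept their direction and side of the threshold in 186 of 192 alternatives. These alternatives include exact permutation tests at an unadjusted 0.05. Both were also kept in 724 of 744 fits that left out 1 rat. Most of the 24 values were not past the threshold, and most rats left out were in neither group compared. Much of this agreement was therefore given beforehand. Of 31 fits without 1 rat, the Tef call in IMZ + CTD was lost in 5 and the Hlf call in 3. Dbp in IMZ + CTD kept its direction and its call throughout. As single-gene tests without adjustment, exact permutation put Dbp past 0.05 in THI (-0.57) and THI + IMZ (-0.47). Hlf in CTD, close to 0, became -0.14 with the replicate block and -0.079 as a difference of mean log2 CPM. Hlf in IMZ + CTD against the dose-weighted sum was not past the threshold with no filter (-0.96). The cause was not tested.

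Replicate numbers are not known to pair the rats. Correlation was above 0.1 in 16 of 78 same-numbered pairs, with a median of 0.033 and a highest value of 0.399. Pairs with unlike numbers were not compared, so these values cannot show whether rats of 1 number share a batch. With the number as a block, which leaves fewer degrees of freedom, Tef (-0.68) and Hlf (-1.06) in IMZ + CTD and Hlf against the sum (-0.89) were not past the threshold, 1 in place of 3 of the 4 genes passed in IMZ + CTD, and 45 genes in place of 108 passed in THI, 23 of 50 in IMZ, 1571 of 2518 in CTD, 53 of 235 in THI + IMZ, 348 of 873 in THI + CTD and 80 of 290 in IMZ + CTD.

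Leaving out 1 rat at a time gave these ranges where a call or a direction changed, beside the calls between treated groups whose losses and gains stand with their values: in IMZ + CTD, Tef -0.84 to -0.67 and Hlf -1.05 to -0.94; against the sum, Hlf -1.09 to -0.73 in IMZ + CTD, and Tef -0.18 to 0.15 and Hlf -0.033 to 0.20 in THI + IMZ; in CTD, Dbp -0.39 to 0.12 and Hlf -0.47 to 0.29; in IMZ, Tef -0.17 to 0.052 and Hlf -0.33 to 0.051; Hlf in THI -0.20 to 0.018 and in THI + IMZ -0.10 to 0.12; and Nfil3 in IMZ + CTD over THI + IMZ -0.050 to 0.084. The number of genes passing ran from 67 to 120 in THI (lowest without replicate 1), 28 to 61 in IMZ (replicate 3), 1470 to 2573 in CTD (replicate 1), 143 to 297 in THI + IMZ (replicate 4), 450 to 969 in THI + CTD (replicate 3) and 98 to 366 in IMZ + CTD (replicate 3). DESeq2 passed 199 in THI, 150 in IMZ, 435 in THI + IMZ, 1386 in THI + CTD and 567 in IMZ + CTD, and 93 passed in IMZ when only the groups compared were fitted. Of 46 calls of genes in the lists against control, 0 were lost with DESeq2, its size factors, filterByExpr or the newer quasi-likelihood method, 3 with no filter, 9 with only the groups compared, 18 with the replicate block (Per1 in THI, CTD, THI + IMZ and IMZ + CTD among them) and 24 in at least 1 fit without 1 rat, and 0 reversed.

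With 3 or 4 treated rats, differences of Tef and Hlf of about 0.4 on the log2 scale lie within the 95% intervals of values that did not pass, so a missed threshold does not show an unchanged level.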

Other observations

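Glucocorticoid response genes were looked at because adrenal hormones set the phase of the liver clock and act on Per1. Tsc22d3, which encodes the glucocorticoid-induced leucine zipper GILZ, fell in THI (-0.84, SE 0.16, adjusted p = 0.00718), CTD (-0.55, SE 0.18, adjusted p = 0.04), THI + CTD (-0.56, SE 0.16, adjusted p = 0.041) and IMZ + CTD (-0.66, SE 0.16, adjusted p = 0.0288). In IMZ + CTD it was at 36.8 to 53.9 CPM against 56.4 to 112 CPM in control. Zbtb16, a zinc finger repressor, fell in THI + CTD (-0.94, SE 0.28, adjusted p = 0.0468) and IMZ + CTD (-1.44, SE 0.29, adjusted p = 0.00646). In THI + IMZ it was at 20.4 to 34.5 CPM, above all controls (9.19 to 17.6 CPM), and did not pass (0.97, SE 0.25, adjusted p = 0.0521). Tat, the tyrosine aminotransferase, fell in CTD (-0.93, SE 0.25) and THI + CTD (-0.96, SE 0.22). Only the calls of Tsc22d3 in THI and Tat in THI + CTD held in each fit without 1 rat. Those of Tsc22d3 in CTD, THI + CTD and IMZ + CTD were lost in some, with adjusted p up to 0.183, 0.197 and 0.172. Fkbp5 and Sgk1 passed in none of the 6 treatments. In all, 1 of the 5 genes passed in THI, 0 in IMZ and THI + IMZ, 2 in CTD, 3 in THI + CTD and 2 in IMZ + CTD. At an unadjusted p under 0.05 there were 0 in IMZ and 3 in THI + IMZ, and DESeq2 passed 1 in THI + IMZ. By edgeR, all genes passed at 0.543% in THI, 0.251% in IMZ and 1.18% in THI + IMZ. The shares were 12.7% in CTD, 4.39% in THI + CTD and 1.46% in IMZ + CTD.

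The C/EBP genes are bZIP factors of another family. Of Cebpa, Cebpb, Cebpd and Cebpg, 1 passed in 1 treatment, Cebpg in CTD (0.27, SE 0.08, adjusted p = 0.0289), and it was lost without any CTD rat or control replicate 3 (adjusted p from 0.0508 to 0.162). In CTD, Cebpa differed by -0.34 (SE 0.13, adjusted p = 0.081), and DESeq2 passed 2 of the 4. By edgeR, 12.7% of all genes passed there. In IMZ + CTD their differences ran from -0.30 (Cebpb, SE 0.24) to 0.13 (Cebpg, SE 0.08).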
